A study of Mus musculus with 6 samples.

Results

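The mitochondrial genome carries its own small set of genes, and the values below describe those genes in cultured heart muscle cells. The members were the rows whose gene symbol begins with mt-. There were 13 of them among 32245 symbols, and all 13 encode proteins of the respiratory chain or of ATP synthase. GENCODE vM21, an annotation of the mouse genome build mm10, also places 22 transfer RNA genes and 2 ribosomal RNA genes on the mitochondrial genome. Those were not analysed here.

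Polyadenylated RNA was sequenced from primary cardiomyocytes of newborn wild-type mice, taken from the heart, with 2 libraries for each of 3 treatments. The groups received phosphate-buffered saline (PBS), the growth factor BMP2, or BMP2 together with dorsomorphin (BMP2+DM), a small-molecule inhibitor of BMP receptor kinases that also inhibits AMP-activated protein kinase. No genetic change or further agent is named for any group, and there was no group with dorsomorphin alone. Exact age, dose, duration and any pooling of animals were not stated in the sources used. Nothing in the labels ties a replicate to its own culture, so the p-values measure only the spread between these samples, which may be technical.

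Both strands of the circular mitochondrial genome are transcribed as long precursors. These are cut into messages, mostly at the transfer RNAs that lie between the protein genes, though mt-Nd4l and mt-Nd4 overlap by 7 bases. Most messages then receive a short poly(A) tail inside the organelle. Their products sit at the core of complex I (the NADH dehydrogenase subunits Nd1 to Nd6 and Nd4l), complex III (cytochrome b), complex IV (the cytochrome c oxidase subunits Co1 to Co3) and complex V, the ATP synthase (Atp6 and Atp8). The remaining subunits are encoded in the nucleus. Cardiac muscle is rich in mitochondria and meets most of its demand for ATP by oxidative phosphorylation.

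The 13 genes fell into 2 sets by raw count. In every library 7 genes had more than 1000 counts, from 18199 (mt-Nd6 in BMP2+DM 2) to 298809 (mt-Co1 in PBS 1). They were mt-Co1, mt-Nd1, mt-Cytb, mt-Nd5, mt-Nd2, mt-Nd4 and mt-Nd6, and all 7 were among the 50 rows with the most counts, with mt-Co1 at rank 1. The other 6 genes (mt-Co2, mt-Co3, mt-Atp6, mt-Atp8, mt-Nd3 and mt-Nd4l) never exceeded 217 counts. Together they held 1576 of 3167113 mitochondrially encoded counts, or 0.0498%.

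The sets also differed in sequence. Chromosome 1 of mm10 carries a stretch of nuclear DNA that resembles part of the mitochondrial genome, annotated as a row of pseudogenes. Mouse transcript sequences of GENCODE vM21 were compared in windows of 100 bases, and a window counted as shared when it matched another gene's transcript exactly. Of the 6 genes with low counts, 5 had at least 97% of their windows shared. The values were 99.9% for mt-Co3 (copy Gm28437), 99.5% for mt-Co2 (Gm28661), 99.5% for mt-Atp6 (Gm10925), 98.5% for mt-Nd4l (Gm10222) and 97.6% for mt-Nd3 (Gm28438). Among the 7 genes with high counts, the share was 60.8% for mt-Nd4 (Gm28439), 30.8% for mt-Co1 (Gm29216, and Gm13340 on chromosome 2), 3.19% for mt-Nd2 (Gm13339 on chromosome 2) and 0 for mt-Nd1, mt-Nd5, mt-Nd6 and mt-Cytb. Other window lengths moved some of these shares. With windows of 50 bases they were 51.1% for mt-Co1, 8.19% for mt-Nd2 and 7.61% for mt-Nd5, and with 150 bases 23.6% for mt-Co1 and 0 for mt-Nd2.

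The first 60 bases of the cytochrome c oxidase subunit gene mt-Co2 (chrM:7013-7072, plus strand) and of the complex I gene mt-Nd3 (chrM:9459-9518, plus strand) are shown with their copies to make the likeness visible. The copies lie on the minus strand of chromosome 1, at chr1:24615506-24615565 for Gm28661 and chr1:24613060-24613119 for Gm28438. Sequences are from GENCODE vM21 transcripts on mm10, written 5′ to 3′, and capitals mark the single base that differs in the lower pair.
mt-Co2: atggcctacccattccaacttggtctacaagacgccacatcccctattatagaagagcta
Gm28661: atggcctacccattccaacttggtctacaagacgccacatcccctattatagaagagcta
mt-Nd3: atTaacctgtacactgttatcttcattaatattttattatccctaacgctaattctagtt
Gm28438: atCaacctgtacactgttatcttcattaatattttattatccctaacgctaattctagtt
The mt-Co2 pair had no mismatch over 681 compared bases, and the mt-Nd3 pair had 1 over 345, T3C counted from the first base of the gene. No mismatch was found for mt-Atp6 (678 bases), mt-Co3 (783), mt-Nd4l (294) or the compared part of mt-Nd4 (876) either.

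The copied stretch began inside mt-Co1 and ended inside mt-Nd4. Placed by the ends of the annotated copies, it ran from mitochondrial position 6381 to 11042, facing chr1:24611535-24616197. The next lines show 60 bases of each of these 2 genes across that border, at chrM:6364-6423 for mt-Co1 and chrM:11013-11072 for mt-Nd4, both on the plus strand, with the 30 bases of an exactly shared window in capitals.
mt-Co1: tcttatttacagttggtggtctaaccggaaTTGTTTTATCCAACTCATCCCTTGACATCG
mt-Nd4: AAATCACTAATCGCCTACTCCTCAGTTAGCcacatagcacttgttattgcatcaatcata
In mt-Co1 the compared part was the 3′ end, positions 1054 to 1545 of the gene. Its 6 mismatches all lay at positions 1056 to 1066, and positions 1067 to 1545 matched exactly. In mt-Nd4 it was the 5′ part, positions 1 to 876. Of the 446 shared windows of mt-Co1, 380 matched Gm29216 and 80 matched Gm13340, 66 of them Gm13340 alone. The number of windows without an exact match was 1000 for mt-Co1 and 502 for mt-Nd4, and both genes were in the high set.

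The small ATP synthase subunit gene mt-Atp8 had the lowest count of all, with 1 and 0 in PBS, 4 and 0 in BMP2, and 0 and 1 in BMP2+DM. No window of it matched another transcript. On the mitochondrial genome it lies at chrM:7766-7969, between mt-Co2 and mt-Atp6, whose copies flank it on chromosome 1, but GENCODE vM21 annotates no copy there and the chromosome 1 bases were not read. Its last 43 bases (chrM:7927-7969) are also the first 43 of mt-Atp6 in another reading frame, and they are shown because a read there belongs to both genes: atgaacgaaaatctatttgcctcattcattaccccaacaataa. None of the copies was a row of the count tables. Reads without a unique alignment made up 3.80% to 4.39% of each library's total. How much of the low set's level lies in that class was not tested.

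**Figure D1:**
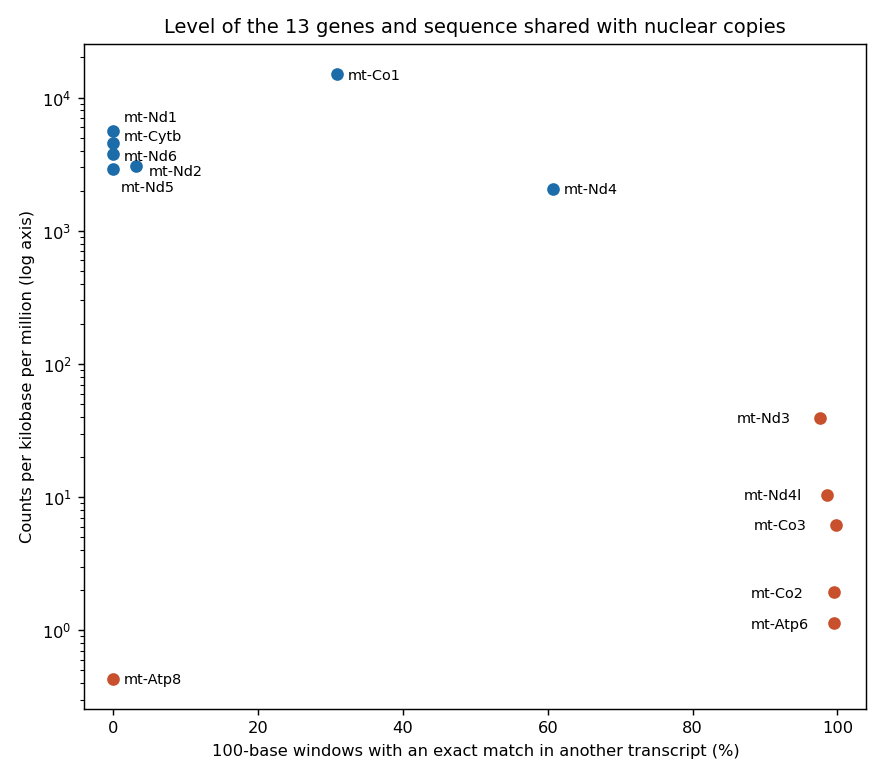
Each point is 1 of the 13 genes. The x axis gives the percentage of its 100-base windows with an exact match in another transcript, the y axis (log scale) its mean CPM per kilobase over the 6 libraries; blue marks the 7 genes with over 1000 counts in every library and red the other 6. The 5 genes at 97.6% to 99.9% sit at 1.13 to 39.5. The gene mt-Atp8 is low with no window shared with an annotated transcript, but it lies inside the copied stretch, where chromosome 1 was not read.

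Levels can be compared between genes only per length. On that scale (counts per 1000000 gene counts after TMM scaling, CPM, per kilobase of gene, mean over 6 libraries) mt-Co1 was highest at 14971. It encodes the catalytic subunit of cytochrome c oxidase. The order then ran mt-Nd1 (5618), mt-Cytb (4586), mt-Nd6 (3764), mt-Nd2 (3083), mt-Nd5 (2921) and mt-Nd4 (2070). The low set followed with mt-Nd3 (39.5), mt-Nd4l (10.4), mt-Co3 (6.20), mt-Co2 (1.93), mt-Atp6 (1.13) and mt-Atp8 (0.435). In each group, neighbours in the high set were further apart than the SD of either gene, except mt-Nd6 beside mt-Nd2 in BMP2+DM. On the same scale by group, mt-Nd2 was at 2564 ± 53.9 and mt-Nd5 at 2726 ± 119 in PBS (SD, n = 2). In BMP2 they were at 3317 ± 45.9 and 3061 ± 6.09. In BMP2+DM they were at 3367 ± 141 and 2976 ± 233, and mt-Nd6 was at 3693 ± 409. The order of mt-Nd2 and mt-Nd5 thus differed between PBS and the other groups.

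The order depended on the length used. Per 1000 windows without an exact match elsewhere, mt-Co1 was at 23130, mt-Nd1 at 6266, mt-Nd4 at 5683, mt-Cytb at 5020 and mt-Nd6 at 4651 CPM, so mt-Nd4 moved from the last place among the 7 to the third. On this scale mt-Nd2 was at 3520 and mt-Nd5 at 3089. In the low set mt-Co3 was at 4863 on 1 such window, mt-Nd3 at 2288 on 6 and mt-Nd4l at 1033 on 3. There mt-Co2 was at 439.5 on 3 and mt-Atp6 at 257 on 3. The annotated copies stop at base 783 of 784 in mt-Co3 and 294 of 297 in mt-Nd4l. They stop at 681 of 684 in mt-Co2 and 678 of 681 in mt-Atp6. The windows left over reach past that end, where chromosome 1 was not read. In mt-Nd3 (345 of 348) some instead hold its 1 mismatch. The values of these genes on this scale can therefore not be read as levels. The gene mt-Atp8 was at 0.844 on 105, but it lies inside the copied stretch and only annotated transcripts were searched. All values on this scale also rest on a window length chosen for the comparison, since the read length was not stated in the sources used.

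Strand adds a further limit for mt-Nd6, the only member on the minus strand (chrM:13552-14070). It overlaps the end of mt-Nd5 (chrM:11742-13565) by 14 bases, and the strand setting of the counting was not stated in the sources used. Reads of mt-Nd6 can therefore not be told apart from reads of the opposite strand over the same bases. The ends of the genes differ too, as their last 30 bases show, with the stop signal in capitals.
mt-Nd1: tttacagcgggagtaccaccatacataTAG
mt-Co1: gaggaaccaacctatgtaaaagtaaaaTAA
mt-Nd4: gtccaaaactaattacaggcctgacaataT
mt-Cytb: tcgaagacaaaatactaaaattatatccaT
Both mt-Nd1 (chrM:3678-3707) and mt-Co1 (chrM:6843-6872) end in a whole stop codon. The genes mt-Nd4 (chrM:11515-11544), mt-Cytb (chrM:15259-15288) and mt-Co3 end in a lone T, which polyadenylation of the message completes to a stop codon.

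Before the comparisons, a few facts of all libraries bear on the values. Library depth, as counts assigned to a gene, was 10106667 to 14366042. PBS 1 and BMP2 1 stood apart, with 1.31% and 2.10% of gene counts on ribosomal-repeat models against 0.0702% to 0.0928% in the other 4. All 12 cardiomyocyte markers were detected. Their summed level was 34350 to 34966 CPM in PBS, 26585 to 26815 in BMP2 and 29562 to 29903 in BMP2+DM. Fibroblast markers summed to 12024 to 13995 CPM over the 6 libraries. Smooth muscle markers summed to 3207 to 3276 CPM in PBS and 1963 to 2080 in the others, endothelial markers to 167 to 271, epicardial markers to 91.4 to 159 and leukocyte markers to 61.5 to 91.4, so other cells were present. No marker of any of these lists was at 0 in all libraries. In bulk RNA, fewer cells of a type and less RNA per cell cannot be told apart.

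The share of gene counts that fell on the 13 genes was lowest with PBS and highest with BMP2+DM. It was 4.16% and 4.38% in the PBS libraries, 4.72% and 4.81% with BMP2, and 5.30% and 4.94% with BMP2+DM. The groups did not overlap. Means were 4.27% ± 0.153, 4.76% ± 0.0634 and 5.12% ± 0.250 (SD, n = 2). BMP2 lay 0.493 percentage points above PBS (a ratio of 1.12), BMP2+DM 0.361 above BMP2 (1.08) and BMP2+DM 0.854 above PBS (1.20).

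With 2 libraries against 2, an exact two-sided permutation test cannot go below p = 0.333, and each of the 3 pairs gave that value. Over the 15 divisions of the 6 libraries into 3 pairs, the exact permutation p was 0.0667, which is also the smallest possible. Without PBS 1 and BMP2 1, the libraries rich in ribosomal-repeat counts, the differences were 0.429, 0.316 and 0.745 points. The second difference was smallest without BMP2+DM 1, at 0.184. The cardiomyocyte markers did not follow the order of the share, being lowest with BMP2. Endothelial markers ran in the opposite order without overlap, with summed levels of 264 and 271 CPM in PBS, 250 and 235 in BMP2, and 167 and 177 in BMP2+DM. So did leukocyte markers, at 91.4 and 88.1, then 69.4 and 66.5, then 65.9 and 61.5 CPM. Some members differed from these sums. The endothelial gene Kdr was at 15.1 and 15.5 CPM, then 28.0 and 19.5, then 8.12 and 9.71. With BMP2 against PBS 1 of 8 endothelial markers rose and 1 fell, beside 6.55% and 9.29% of all tested genes. In the leukocyte list Csf1r was at 16.7 and 17.0 CPM, then 18.6 and 18.9, then 11.8 and 12.4. There Lyz2 was at 60.2 and 56.8, then 40.1 and 34.9, then 40.1 and 37.7. The part of these cell types in the share was not tested.

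**Figure D2:**
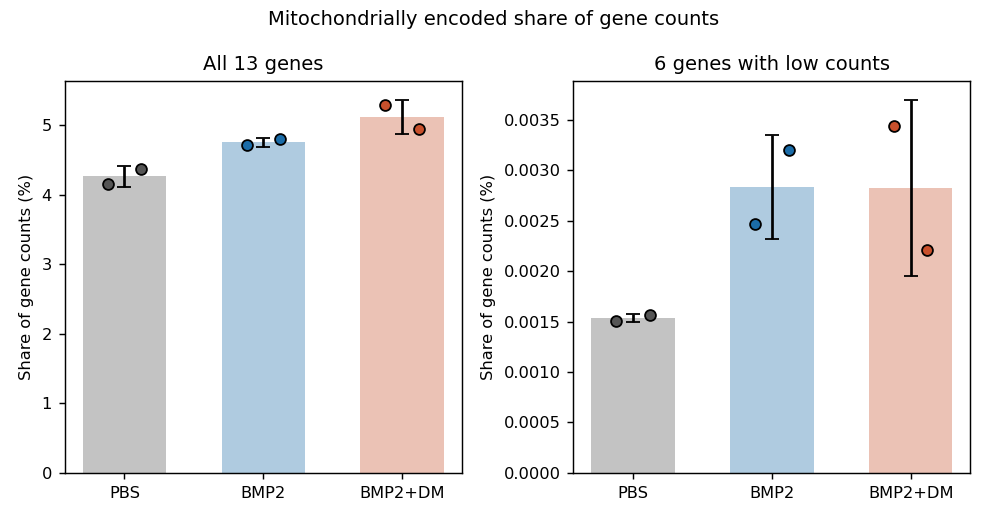
Bars give the mean share of gene counts (%) in each treatment, error bars the SD and points the 2 libraries; the left panel holds all 13 genes and the right panel the 6 genes with low counts. On the left the groups do not overlap, from 4.16% to 5.30%. On the right both PBS libraries are lowest, while BMP2 and BMP2+DM overlap.

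A single gene, mt-Co1, held close to as much of the share as all the others together. It had 2.08% and 2.20% of gene counts with PBS, 2.24% and 2.32% with BMP2, and 2.59% and 2.45% with BMP2+DM. Without it, the remaining 12 genes were at 2.08% and 2.17%, at 2.47% and 2.48%, and at 2.71% and 2.49%. Neither part overlapped between the 3 groups. The low set was at 0.00150% and 0.00156% with PBS, 0.00247% and 0.00319% with BMP2, and 0.00344% and 0.00221% with BMP2+DM. Here BMP2 and BMP2+DM overlapped, and both were above PBS (exact permutation p = 0.333 over 3 groups).

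BMP2 against PBS asks which messages BMP2 changes in these cells. Of the 13 genes, 11 passed the filter on low counts and were tested, and mt-Atp6 and mt-Atp8 were not. In this comparison 4 of the 11 rose and 0 fell by the edgeR quasi-likelihood test, against 6.55% of all tested genes called higher and 9.29% called lower, 15.8% in either direction. The genes that rose were mt-Nd1, mt-Nd2, mt-Nd3 and mt-Nd5, which all encode subunits of complex I, as do 7 of the 11 tested genes. Of those 7, mt-Nd4, mt-Nd4l and mt-Nd6 were not called. The groups did not overlap for any of the 11, against 55.9% of all tested genes. The median log2 fold change was 0.17 over the 11 genes and 0.11 over the high set, beside 0.0044 over all tested genes.

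The rise was clearest for mt-Nd1 (chrM:2751-3707) and mt-Nd2 (chrM:3914-4951), subunits of the membrane arm of complex I. The normalised level of mt-Nd1 was 4455 and 4461 CPM with PBS, and 5736 and 5579 with BMP2. Both BMP2 libraries lay far above both PBS libraries, with a log2 fold change of 0.34 ± 0.04 (SE) and an edgeR adjusted p of 1.08e-05. For mt-Nd2 the values were 2622 and 2701 CPM, then 3477 and 3409. Again the groups were well apart, at a log2 fold change of 0.37 ± 0.04 (edgeR adjusted p = 8.04e-06), or 1.29-fold.

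The other complex I genes of the high set moved less. For mt-Nd5 the level was 4819 and 5125 CPM with PBS, and 5575 and 5591 with BMP2. That was a log2 fold change of 0.17 ± 0.05 (edgeR adjusted p = 0.0192), and the call was lost without PBS 1 (0.12), BMP2 1 (0.17) or BMP2 2 (0.16). For mt-Nd4 (chrM:10167-11544) it was 2662 and 2777, then 2859 and 2786, groups that nearly touched (0.05 ± 0.04, edgeR adjusted p = 0.482). For mt-Nd6 it was 1970.4 and 1970.1 CPM, then 1975 and 1970.7, a log2 fold change of 0.00 ± 0.06 (edgeR adjusted p = 0.99). Its 4 libraries lay within a few CPM of each other.

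The catalytic oxidase subunit gene mt-Co1 (chrM:5328-6872) had 21335 and 22320 CPM with PBS, and 22693 and 22934 with BMP2. All BMP2 values were higher, but the log2 fold change of 0.06 ± 0.03 did not pass the test (edgeR adjusted p = 0.129). The cytochrome b gene mt-Cytb (chrM:14145-15288), the only member from complex III, had 4781 and 4978 CPM, then 5346 and 5188. Its log2 fold change of 0.11 ± 0.04 also missed the threshold (edgeR adjusted p = 0.0694). It passed with library totals only, without the filter, without the ribosomal-repeat models, and without BMP2+DM 1 or BMP2+DM 2 (edgeR adjusted p from 0.0236 to 0.0481). Without BMP2+DM 1 or BMP2+DM 2, mt-Co1 passed too, at 0.06 in both fits (edgeR adjusted p = 0.0419 and 0.0453).

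In the low set mt-Nd3 (chrM:9459-9806) had raw counts of 108 and 102 with PBS, and 152 and 208 with BMP2. Both BMP2 libraries were higher, by 1.02 ± 0.26 on the log2 scale (edgeR adjusted p = 0.0106). This call was lost without PBS 1 (0.92), PBS 2 (1.12) or BMP2 2 (0.74). Counts of mt-Nd4l were 27 and 26, then 45 and 40, and those of the oxidase subunit gene mt-Co3 were 44 and 38, then 55 and 60. Neither passed (0.92 ± 0.38 and 0.73 ± 0.32). The counts of mt-Co2 were 23 and 14, then 11 and 11, and of mt-Atp6 13 and 2, then 8 and 12. The part that the shared windows of these genes (97.6% to 99.9%) have in their fold changes was not tested.

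Without PBS 1 and BMP2 1 together, fewer of the 11 genes were called higher, and so were fewer of all tested genes. The genes mt-Nd1 and mt-Nd2 passed the threshold in every fit of this comparison that was run. In this comparison 11 of 12 cardiomyocyte markers, 4 of 7 smooth muscle markers, 5 of 7 epicardial markers and 5 of 10 fibroblast markers fell, against 9.29% of all tested genes. Fibroblast markers rose in 2 of 10, beside 6.55% of all tested genes called higher. Endothelial markers rose in 1 of 8 and fell in 1, and leukocyte markers rose in 0 of 5 tested and fell in 1. The part of these changes in the rise of mt-Nd1 and mt-Nd2 was not tested.

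BMP2+DM against BMP2 asks what the inhibitor changes in the presence of BMP2. Here 1 of the 11 tested genes rose and 0 fell by edgeR, against 4.28% of tested genes called higher and 4.44% called lower, 8.73% in either direction. That gene was mt-Co1, at 22693 and 22934 CPM with BMP2, and 25420 and 24076 with BMP2+DM. Both BMP2+DM libraries were higher, by 0.12 ± 0.03 on the log2 scale or 1.08-fold (edgeR adjusted p = 0.00972). This call was lost without BMP2 2 (0.13, edgeR adjusted p = 0.0525) and without BMP2+DM 1 (0.08, adjusted p = 0.0819). It was also lost without PBS 1 and BMP2 1 together and with DESeq2 (adjusted p = 0.0972).

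In the high set the BMP2+DM libraries had the largest SD of CPM for every gene except mt-Nd4 (75.5 against 81.2 in PBS). For mt-Nd1 they were at 6285 and 5742 CPM, for mt-Nd2 at 3599 and 3391, and for mt-Cytb at 5759 and 5424. In each of the 3 genes BMP2+DM 1 was the higher library, and for mt-Nd2 its partner lay below both BMP2 libraries. For mt-Nd6 they were at 2067 and 1767 CPM, values on either side of all 4 other libraries. Chi-square per degree of freedom between the libraries of a group over the 7 genes was 31.4 for BMP2+DM, 13.6 for PBS and 12.6 for BMP2. It compares how the counts divide among these genes, not their CPM.

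Of the 11 genes 6 did not overlap between BMP2+DM and BMP2, against 50.3% of all tested genes. Log2 fold changes were 0.09 ± 0.04 for mt-Nd1, 0.10 ± 0.04 for mt-Nd4, 0.09 ± 0.04 for mt-Cytb, 0.02 ± 0.04 for mt-Nd2, −0.04 ± 0.05 for mt-Nd5 and −0.04 ± 0.06 for mt-Nd6. None of these 6 passed the test, with edgeR adjusted p from 0.213 to 0.832. Without BMP2+DM 2 the value for mt-Nd1 was 0.15 and passed. The median was 0.09 over the 11 genes and 0.00035 over all tested genes. In this comparison 5 of 12 cardiomyocyte markers rose and 0 fell, beside 4.28% of all tested genes called higher. Of 4 RNAs retained in the nucleus Meg3, Neat1 and Malat1 rose (3 genes, median 0.31 over the 4). Endothelial markers fell in 3 of 8 (median −0.39), beside 4.44% of all tested genes called lower. Of 10 fibroblast markers 4 rose and 5 fell, and of 7 epicardial markers 3 rose and 1 fell. Of 7 smooth muscle markers 1 rose and 2 fell, and of 5 tested leukocyte markers 0 rose and 1 fell. The part of these changes in the value of mt-Co1 was not tested.

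BMP2+DM against PBS shares its libraries with the comparisons above, so its values are not independent of them. Of the 11 genes 6 rose and 0 fell by edgeR, against 9.38% of tested genes called higher and 11.5% called lower, 20.9% in either direction. They were mt-Nd1, mt-Nd2, mt-Nd3, mt-Nd4, mt-Co1 and mt-Cytb. Groups did not overlap for 9 of the 11, against 58.5% of all tested genes. The median log2 fold change was 0.20 over the 11 genes and 0.0069 over all tested genes.

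The rise of mt-Nd1 was 0.43 ± 0.04 on the log2 scale, or 1.35-fold (edgeR adjusted p = 5.18e-07), and that of mt-Nd2 was 0.39 ± 0.04, or 1.31-fold (edgeR adjusted p = 3.08e-06). The levels of mt-Cytb with BMP2+DM were above both PBS libraries, by 0.20 ± 0.04 or 1.15-fold (edgeR adjusted p = 0.00149). For mt-Co1 the rise was 0.18 ± 0.03 or 1.13-fold (edgeR adjusted p = 8.41e-05). The level of mt-Nd4 was 3070 and 2963 CPM with BMP2+DM, 0.15 ± 0.04 above PBS (edgeR adjusted p = 0.0222), and its call was lost without PBS 1 (0.12) or BMP2+DM 1 (0.12). The value for mt-Nd5 was 0.13 ± 0.05 (edgeR adjusted p = 0.0629), with libraries at 5728 and 5127 CPM of which the lower nearly met PBS 2. Without BMP2+DM 2 it was 0.21 and passed, and without BMP2+DM 1 it was 0.04. It also passed with library totals only (0.18), without the filter and without the ribosomal-repeat models (0.13 each). For mt-Nd6 the value was −0.04 ± 0.06 (edgeR adjusted p = 0.704).

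Raw counts of mt-Nd3 with BMP2+DM were 217 and 115, and its rise of 0.96 ± 0.26 (edgeR adjusted p = 0.0131) was lost without PBS 1 (0.86), PBS 2 (1.06) or BMP2+DM 1 (0.43). Counts of mt-Co3 were 74 and 50 (0.90 ± 0.32, edgeR adjusted p = 0.0525), a value that passed without BMP2+DM 2 (1.15), with library totals only (0.95) and without the filter (0.90). With BMP2+DM the counts of mt-Nd4l were 32 and 35, of mt-Co2 17 and 14, and of mt-Atp6 9 and 8. Without PBS 1 and BMP2 1 together, fewer of the 11 genes were called higher than in PBS, and so were fewer of all tested genes. In this comparison 9 of 12 cardiomyocyte and 5 of 8 endothelial markers fell, against 11.5% of all tested genes called lower. So did 5 of 7 smooth muscle, 4 of 7 epicardial and 2 of 5 tested leukocyte markers, and 0 rose in these lists. Of 10 fibroblast markers 4 rose and 5 fell, beside 9.38% of all tested genes called higher. The part of these changes in the values of the members was not tested.

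**Figure D3:**
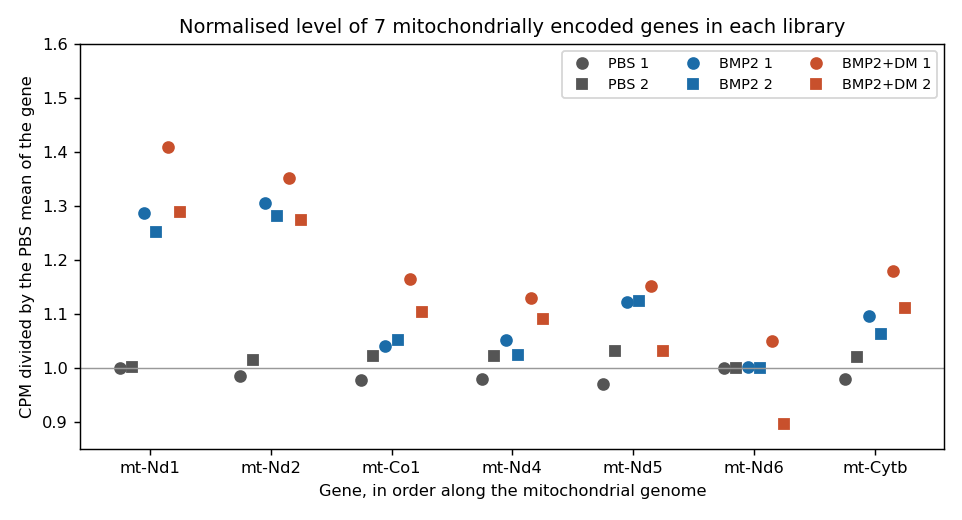
Points give the level of each of the 7 genes in each of the 6 libraries (CPM after TMM scaling) divided by the gene's mean over the PBS libraries; genes are in order along the mitochondrial genome, and colours mark the treatment. The 4 libraries with BMP2 stand clear of PBS for mt-Nd1 and mt-Nd2, while for mt-Nd6 the BMP2+DM libraries lie on both sides of the rest.

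The genes did not rise by equal amounts, which is seen best against their own total. In each library mt-Co1 held the largest part of the mitochondrially encoded counts, with 50.01% and 50.3% in PBS, 47.6% and 48.3% in BMP2, and 48.9% and 49.6% in BMP2+DM. The share of mt-Nd1 was 10.4% and 10.1%, then 12.03% and 11.7%, then 12.1% and 11.8%. That of mt-Nd2 was 6.15% and 6.09%, then 7.29% and 7.18%, then 6.93% and 6.99%. For both genes all 4 libraries with BMP2 were above both PBS libraries. The share of mt-Nd6 was 4.62% and 4.44%, then 4.14% and 4.15%, then 3.98% and 3.64%, falling below PBS in all 4.

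The share of mt-Cytb stayed between 10.9% and 11.2% in all 6 libraries. That of mt-Nd4 was 6.24% and 6.26% in PBS, 5.99% and 5.87% in BMP2, and 5.91% and 6.11% in BMP2+DM. For mt-Nd5 it was 11.3% and 11.6%, then 11.7% and 11.8%, then 11.02% and 10.6%. Summed by complex, the 7 genes of complex I held 38.8% and 38.4% with PBS, 41.2% and 40.8% with BMP2, and 39.98% and 39.2% with BMP2+DM, groups that did not overlap. A part of one total can rise only as another falls, so these shares show unequal change and not which gene moved.

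The same was fitted with the mitochondrially encoded total as library size, an alternative chosen after the data were seen. On that scale the median of all tested genes moved to −0.126, −0.0762 and −0.200 on the log2 scale in the 3 comparisons. Against PBS, mt-Nd1 remained higher with BMP2 (log2 fold change 0.21, edgeR adjusted p = 0.0229) and with BMP2+DM (0.22, edgeR adjusted p = 0.0118). So did mt-Nd2, at 0.24 (edgeR adjusted p = 0.0157) and 0.19 (edgeR adjusted p = 0.046). Values of mt-Co1 turned to −0.07 and −0.03, of mt-Cytb to −0.02 and −0.01 and of mt-Nd4 to −0.08 and −0.06, none of which passed. With BMP2+DM mt-Nd6 was lower by this scale (−0.25, edgeR adjusted p = 0.0161), against −0.13 with BMP2 (edgeR adjusted p = 0.282).

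**Figure D4:**
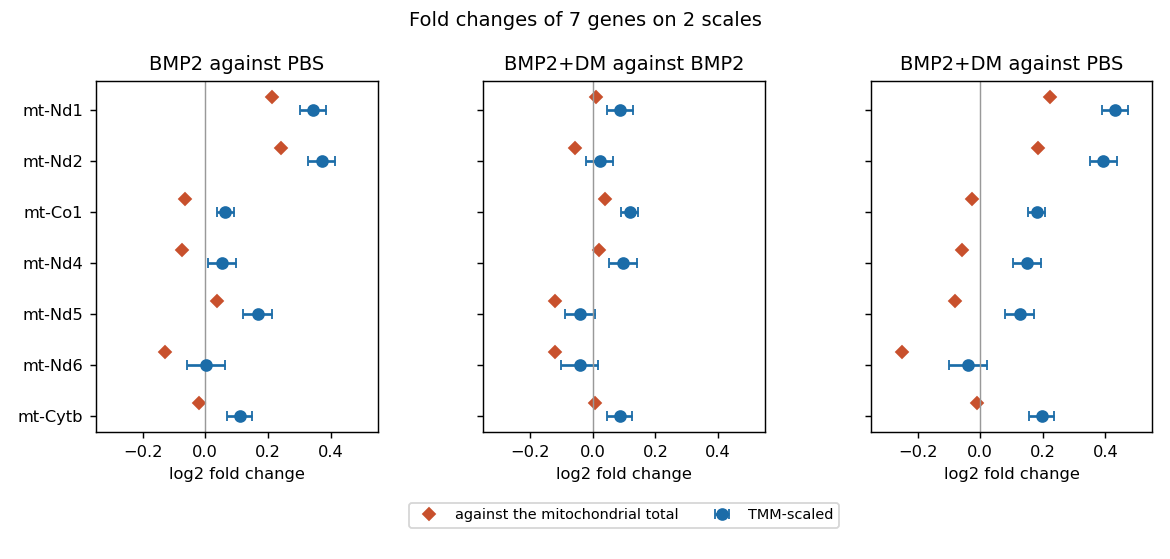
Each panel gives the log2 fold change (x axis) of the 7 genes in 1 comparison. Blue circles with bars are the TMM-scaled values ± SE and red diamonds the values against the mitochondrially encoded total. Against PBS, mt-Nd1 and mt-Nd2 lie to the right of 0 on both scales, while mt-Co1, mt-Nd4 and mt-Cytb lie on different sides of 0.

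The nuclear partners of these genes give a setting for their values. Of 64 tested nuclear subunits of complexes I to V, 20 rose and 0 fell with BMP2 against PBS (median 0.11). Over all tested genes 6.55% were called higher and 9.29% lower. With BMP2+DM against PBS 35 rose and 0 fell (median 0.23, beside 9.38% and 11.5%). With BMP2+DM against BMP2 1 rose and 0 fell (median 0.13, beside 4.28% and 4.44%). The count of 20 was smaller without PBS 1 and BMP2 1 together, without PBS 2 and without BMP2 2. Calls higher over all tested genes were also fewer in those fits. By complex, 7 of 24 in complex I, 3 of 4 in II, 4 of 9 in III, 1 of 13 in IV and 5 of 14 in V rose with BMP2. The smallest p in complex I was that of Ndufs1, an iron-sulfur subunit of the electron input module (0.40 ± 0.06, edgeR adjusted p = 7.08e-05). Uqcrfs1, the Rieske iron-sulfur protein of complex III, rose by 0.44 ± 0.05 with BMP2 and by 0.51 ± 0.05 with BMP2+DM against PBS. Atp5c1, the gamma subunit of ATP synthase, rose by 0.32 ± 0.05 with BMP2, a call lost without PBS 1 and BMP2 1 (0.29). The 1 subunit called between BMP2+DM and BMP2 was Ndufs7 (0.33 ± 0.09, edgeR adjusted p = 0.0322), and its call was lost without BMP2 1 (0.31), BMP2 2 (0.35) or BMP2+DM 2 (0.28).

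Of 13 genes of mitochondrial DNA replication and the nucleoid, 2 rose with BMP2 and 3 with BMP2+DM against PBS, beside 6.55% and 9.38% of all tested genes called higher. Of 10 genes of mitochondrial transcription, 0 rose with BMP2 and 1 with BMP2+DM against PBS. Tfam, which packages mitochondrial DNA and starts its transcription, was at 0.25 ± 0.11 (edgeR adjusted p = 0.15) and 0.20 ± 0.11 (edgeR adjusted p = 0.226), and the polymerase gene Polrmt was at 0.17 ± 0.14 with BMP2. Of 29 genes of mitochondrial RNA processing, modification and decay, 8 rose and 1 fell with BMP2 against PBS. With BMP2+DM against PBS 12 rose and 0 fell. Over all tested genes 9.29% and 11.5% were called lower in these comparisons. Lrpprc encodes an RNA-binding protein that stabilises mitochondrial messages and promotes their polyadenylation. Its level was 91.3 and 95.7 CPM with PBS, 149 and 146 with BMP2, and 147 and 166 with BMP2+DM. The 4 libraries with BMP2 were well above PBS, by 0.66 ± 0.08 (edgeR adjusted p = 7.25e-06) and 0.74 ± 0.08 (edgeR adjusted p = 1.26e-06) on the log2 scale. Slirp, its binding partner, was at 0.03 ± 0.11 with BMP2 and did not pass.

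Of 11 mitochondrial translation factors 4 rose with BMP2 and 7 with BMP2+DM against PBS, and 0 fell, beside 6.55% and 9.38% of all tested genes called higher and 9.29% and 11.5% called lower. Gfm1, an elongation factor of the mitochondrial ribosome, rose by 0.64 ± 0.07 with BMP2 (edgeR adjusted p = 3.92e-06). Of 12 regulators of mitochondrial biogenesis 3 rose with BMP2 and 6 with BMP2+DM against PBS, and 0 fell. Perm1, a muscle regulator of oxidative genes, rose by 0.99 ± 0.10 with BMP2 and by 0.95 ± 0.10 with BMP2+DM. Ppargc1a, the coactivator PGC-1 alpha, rose by 0.47 ± 0.11 with BMP2+DM (edgeR adjusted p = 0.00475), a call lost without PBS 1 and BMP2 1 (0.49, edgeR adjusted p = 0.0699). Of 10 tested genes of mitophagy and mitochondrial dynamics 2 rose and 2 fell with BMP2, and 3 rose and 1 fell with BMP2+DM against PBS. These lists were compared with all tested genes by their counts and medians only.

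**Figure D5:**
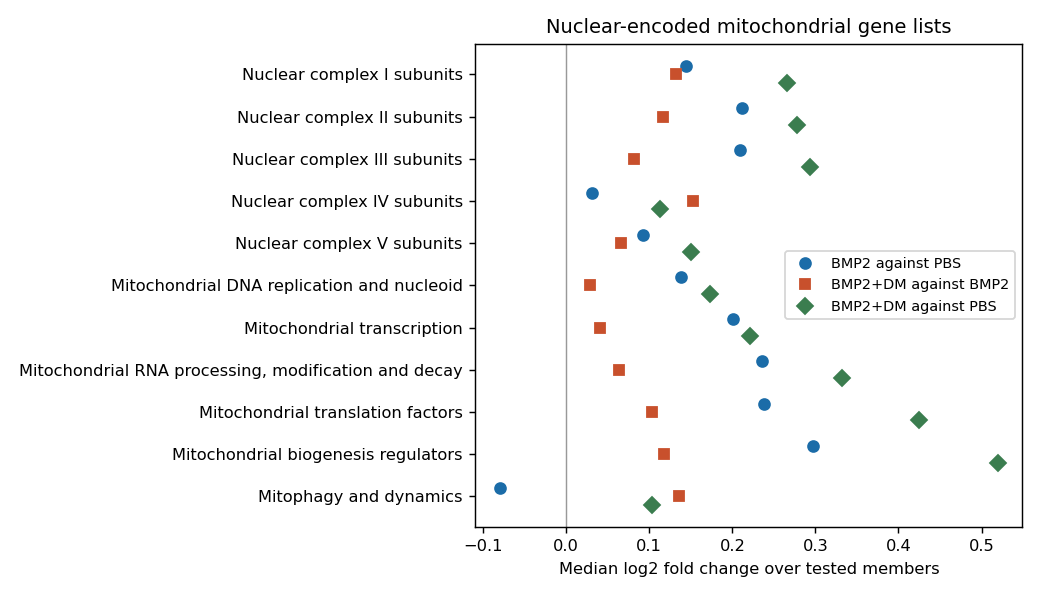
Points give the median log2 fold change over the tested members of 11 lists of nuclear genes for mitochondria, with 1 symbol for each comparison. Medians against PBS lie above 0 for every list except mitophagy and dynamics with BMP2, and biogenesis regulators are highest at 0.52 for BMP2+DM against PBS.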

How the data were processed

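The 6 tables deposited by the authors, 1 for each library, hold whole-number counts of reads for every gene symbol. The submitters' processing notes name STAR and HTSeq, together with FastQC, Trimmomatic and DESeq2, and the build mm10. Versions, annotation, strand setting and read length were not stated in the sources used. The last 5 lines of each file name no gene and were left out; they held 53.8% to 54.2% of its total. The edgeR filter filterByExpr (minimum count 10, minimum total 15) left 14378 genes. All libraries were fitted together with TMM factors in edgeR 4.0.16 (R 4.3.3), giving quasi-likelihood F tests with 3 residual degrees of freedom, Benjamini-Hochberg adjustment over all tested genes and a threshold of 0.05. The SE was taken from the log2 fold change and F (size of the change over the root of F). CPM are TMM-scaled. Shares were tested by exact permutation. Alternatives, DESeq2 1.42.0 among them, are given at the end. Replicate libraries differed by more than counting error and were kept separate.

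Named were all 13 members, and nuclear genes among the 3 with the smallest p of their list in a comparison or in a short panel. The members and lists were chosen with earlier results of these data known. Sequences and positions are from GENCODE vM21 (mm10).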

Additional observations from a re-analysis of the deposited data

How the results depend on the processing

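Of 11 genes tested, 4 were called higher with BMP2 than with PBS. Leaving out 1 library gave 2 to 6, leaving out PBS 1 and BMP2 1 together 2, and the mitochondrially encoded total as library size 3. For BMP2+DM against BMP2 the 1 call became 0 to 2 without 1 library, and 0 with DESeq2, without both libraries, or on the mitochondrially encoded total. For BMP2+DM against PBS the 6 calls became 4 to 8 without 1 library and 4 without both libraries. They were 8 with library totals only or without the filter, and 3 higher and 1 lower on the mitochondrially encoded total. Share differences ran from 0.385 to 0.601, from 0.184 to 0.537 and from 0.677 to 1.03 points without 1 library, and were 0.221, 0.165 and 0.386 with all reads as denominator. Where 1 library was left of a group, its spread was taken to equal that of the others. Calls higher over all tested genes moved in these fits too. For BMP2 against PBS they were fewer without a PBS or BMP2 library and more without a BMP2+DM library. In the comparisons with BMP2+DM they were fewer in each of these fits. The cause of these shifts was not tested.

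With the replicate number as a block, the counts were again 4, 1 and 6. Deviations of same-numbered libraries correlated at 0.189 (PBS and BMP2), −0.0516 (PBS and BMP2+DM) and 0.0162, so the numbers were not taken to pair the libraries, although PBS 1 and BMP2 1 were both rich in ribosomal-repeat counts. The block raised the nuclear subunits called higher between BMP2+DM and BMP2 from 1 to 5. Over all tested genes the calls higher went from 616 to 601. The count of subunits was 10 with library totals only, beside 749 over all tested genes, whose median log2 fold change was then 0.0279. Without the filter it was 11, beside 793.

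Signs turned for BMP2 against PBS in mt-Nd6 (−0.000102 without PBS 1 and BMP2 1, −0.00125 with only these groups). On the mitochondrially encoded total they turned in mt-Co1 (−0.0656), mt-Cytb (−0.0192), mt-Nd4 (−0.0759) and mt-Nd6 (−0.128) for BMP2 against PBS, in mt-Nd2 (−0.0563) for BMP2+DM against BMP2, and in mt-Co1 (−0.026), mt-Co2 (−0.150), mt-Cytb (−0.0108), mt-Nd4 (−0.0572) and mt-Nd5 (−0.0817) for BMP2+DM against PBS. With library totals only, mt-Nd6 was at 0.016 for BMP2+DM against PBS. Without 1 library the values for BMP2+DM against BMP2 ran from −0.592 to 0.323 in mt-Nd3, −0.144 to 0.420 in mt-Co3, −0.0243 to 0.0663 in mt-Nd2, −0.125 to 0.0395 in mt-Nd5 and −0.162 to 0.0697 in mt-Nd6. They ran from −0.128 to 0.299 in mt-Co2 and −0.161 to 0.0702 in mt-Nd6 for BMP2+DM against PBS, and from −0.0349 to 0.112 in Slirp for BMP2 against PBS. No gene that had been called turned in these fits except mt-Co1, mt-Cytb and mt-Nd4 on the mitochondrially encoded total.

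Over all genes, calls higher and lower for BMP2+DM against PBS were 1349 and 1658, and 1843 and 1376 with library totals only. On the mitochondrially encoded total they were 430 and 3498, against 333 and 2066 for BMP2 against PBS (942 and 1335 with TMM) and 314 and 841 for BMP2+DM against BMP2 (616 and 639 with TMM). With 2 libraries a group the smallest p of a share test was 0.333. Small counts limited the comparisons of the 6 genes that stayed at or below 217 counts, and why these counts were low was not tested.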
